A study of Mus musculus with 4 samples.

Results

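The 6 genes Plau, Plaur, Plat, Serpinb2, F10 and F13a1 take part in plasminogen activation and in the clotting steps that make and harden fibrin. They were taken by symbol from the 31053 genes counted in bone marrow (BM) macrophages by single-cell RNA-sequencing. They were picked with their efferocytic and non-efferocytic levels in these libraries already known, so their difference between the groups is described here and carries no test. BM was flushed from the femur and tibia of male C57BL/6J mice and grown for 4 days with M-CSF, the growth factor of macrophages. The mice were 4–6 weeks old by the general methods and 4 weeks old by the study's figure caption for the single-cell experiments. Efferocytic BM macrophages had been kept for 16–18 h in low serum at a 1:1 ratio with UV-killed RM1 cells, a Ras and Myc driven prostate cancer line of the same mouse strain, and were sorted as F4/80+CFSE+. Non-efferocytic BM macrophages were sorted as F4/80+ only. The study calls them macrophages alone in one place, while the labels and methods describe the co-culture with RM1 cells first and then a sort of both groups, so whether the controls had met RM1 cells is not settled by the sources used here. CFSE is a dye loaded into the RM1 cells beforehand, so it marks macrophages that hold RM1 material, and F4/80 is the surface marker by which mouse macrophages are usually sorted. Each of 2 experiments gave 1 library per group, so that there were 2 libraries in each group, and the number of mice behind each library is not stated, beyond a general note in the methods that macrophage experiments drew on several mice per group.

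Plasminogen is a circulating proenzyme that urokinase (Plau) or tissue-type plasminogen activator (Plat) cuts into plasmin, the protease that dissolves fibrin and other matrix proteins. The urokinase receptor (Plaur) holds urokinase at the cell surface, and serpins such as Serpinb2 block the activators. Factor X (F10) yields the protease that turns prothrombin into thrombin, and the A subunit of factor XIII (F13a1) yields the transglutaminase that cross-links fibrin. Macrophages are known producers of urokinase, its receptor and factor XIII, and use them in migration, matrix turnover and wound repair.

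In the GENCODE annotation of GRCm38, Plau lies at chr14:20836660-20843385, Plaur at chr7:24462484-24475968 and Plat at chr8:22757727-22782844, all on the plus strand. Serpinb2 lies at chr1:107511423-107535478 and F10 at chr8:13037308-13056676, also on the plus strand, and F13a1 lies at chr13:36867178-37050244 on the minus strand. F10 starts 1498 bases beyond the end of F7, which encodes factor VII. Serpinb2 overlaps Serpinb10 on the same strand, which is not among the genes counted here, and F13a1 overlaps 2 annotated genes on the opposite strand. The other members overlap no annotated gene. RefSeq promoter windows (GRCm38.p6, from 250 bases before to 50 bases after the start site) were at hand for 4 of the 6 genes. One window is shown for each, since these genes stood in opposite directions between the groups in CPM, Plaur higher and Serpinb2, F10 and F13a1 lower in efferocytic BM macrophages (for F10 the direction turned when counts were scaled per cell). Positions count the start site as 1 and give the first base of the match on the gene's strand. Capitals mark matches, on either strand, to the AP-1 motif TGANTCA, the PU.1/ETS motif GAGGAA, the hypoxia response cores ACGTG and GCGTG, and the CRE core TGACGT.
Plaur, chr7:24462233-24462532, plus strand: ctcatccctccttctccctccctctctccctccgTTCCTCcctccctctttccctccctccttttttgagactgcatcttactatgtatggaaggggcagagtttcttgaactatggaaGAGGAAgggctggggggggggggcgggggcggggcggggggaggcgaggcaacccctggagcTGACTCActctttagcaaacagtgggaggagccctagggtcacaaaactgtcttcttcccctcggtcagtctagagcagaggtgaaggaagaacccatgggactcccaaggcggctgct
Serpinb2, chr1:107511173-107511472, plus strand: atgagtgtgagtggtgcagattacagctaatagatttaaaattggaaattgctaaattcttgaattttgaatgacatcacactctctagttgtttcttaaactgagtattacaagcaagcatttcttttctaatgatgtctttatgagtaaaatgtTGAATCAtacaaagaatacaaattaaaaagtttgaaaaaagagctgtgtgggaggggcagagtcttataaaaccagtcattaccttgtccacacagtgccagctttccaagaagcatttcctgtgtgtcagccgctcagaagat
F10, chr8:13037058-13037357, plus strand: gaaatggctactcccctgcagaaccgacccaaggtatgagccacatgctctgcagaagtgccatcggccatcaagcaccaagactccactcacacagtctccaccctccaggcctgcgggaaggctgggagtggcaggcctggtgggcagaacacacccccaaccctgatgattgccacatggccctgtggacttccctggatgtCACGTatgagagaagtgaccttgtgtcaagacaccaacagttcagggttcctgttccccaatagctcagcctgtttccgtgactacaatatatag
F13a1, chr13:37050195-37050494, minus strand: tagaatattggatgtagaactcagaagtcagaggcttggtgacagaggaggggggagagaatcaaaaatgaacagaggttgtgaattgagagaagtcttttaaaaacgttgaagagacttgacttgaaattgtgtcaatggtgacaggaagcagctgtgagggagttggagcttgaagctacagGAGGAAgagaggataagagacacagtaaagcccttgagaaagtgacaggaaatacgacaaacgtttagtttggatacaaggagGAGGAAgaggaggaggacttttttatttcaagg
The Plaur window held TGANTCA at position -69 from the start site and GAGGAA at -216, read on the opposite strand, and at -131. The Serpinb2 window held TGANTCA at -94. The F10 window held ACGTG at -45, read on the opposite strand, and the F13a1 window held GAGGAA at -66 and 18. Over 32851 mouse windows of this length, 7.81% held TGANTCA, 28.3% held GAGGAA, 43.8% held ACGTG or GCGTG and 7.51% held TGACGT, so that GAGGAA and the hypoxia cores are frequent by themselves. These letters are matches in a window and not bound sites.

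The 4 libraries held 6695 to 13411 cells and 101216659 to 155224183 UMIs (unique molecular identifiers, 1 per captured mRNA molecule) in those cells. The mean was 12224 and 10316 UMIs per cell in the non-efferocytic libraries and 18670 and 18462 in the efferocytic libraries. Levels are therefore given as counts per 1000000 UMIs of the library's cells (CPM). The macrophage marker list (10 genes, all detected) summed to 23866 to 39627 CPM, lower in the efferocytic library of both experiments. Lyz2 had the most UMIs of the list in every library. Summed neutrophil markers (10 genes) were at 3047 and 3340 CPM in the non-efferocytic and 953 and 705 CPM in the efferocytic libraries. Fibroblast markers (7 genes) were at 146 and 122 CPM against 46.8 and 52.7 CPM, and genes expected in RM1 cells (13 genes) at 122 and 123 CPM against 39.0 and 54.1 CPM, where 1 of the 13 was at 0 in both libraries of Experiment 1 and none of the other genes named here was. Non-efferocytic Experiment 2 differed from the other libraries in having 36048 barcodes of 500 to under 1000 UMIs where they had 1048 to 2046, and it shared 118 cell barcodes with the efferocytic library of Experiment 2, where 16.6 would be shared by chance, against 14 to 23 for the other pairs of libraries. Of its cells, 18.6% lay in the few-UMI clusters described below, against 4.42% to 5.62% in the other libraries. A UMI of the RM1 or fibroblast lists was found in 34.2% of its cells, against 10.3% to 11.9%. Both bear on its unthinned shares of cells and its UMIs per cell. The counting intervals given below are exact 95% intervals and cover counting error only.

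Plau and Plaur were higher and F13a1 was lower in efferocytic BM macrophages of both experiments, F10 was lower per 1000000 UMIs but not in the fit scaled per cell, and most UMIs of Plat and Serpinb2 lay in fibroblast-like and neutrophil-like cells. In a fit over all genes (edgeR, UMIs summed per library, experiment as a block), 13869 genes passed the filter on low counts and 38.9% of them were called at an adjusted p of 0.05, 19.9% higher and 19.0% lower in efferocytic BM macrophages. Of the 6 genes, 5 passed the filter, of which 2 were called higher (Plau and Plaur) and 1 lower (F13a1). Because the genes were picked on this contrast, nothing is read from that count or from the call of any single member. The calls are given only to describe how the fits moved between settings. That of F13a1 was absent without the block, when scaled per cell and with free RNA removed. F10 was called lower with library totals, with no filter and over genes of at least 10 CPM. Fits with a library left out leave 1 library in a group and were run without the block, so they compare across experiments. No call of a single member is read from them. Without the non-efferocytic library of Experiment 2, the log2 fold changes were 1.82 for Plau, 0.85 for Plaur, -0.37 for F10 and -1.51 for F13a1, and no gene of the 14036 tested was called (edgeR, 3494 at an unadjusted p under 0.05). In these sums per library, fewer cells that express a gene and less of its RNA per cell cannot be told apart.

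**Figure D1:**
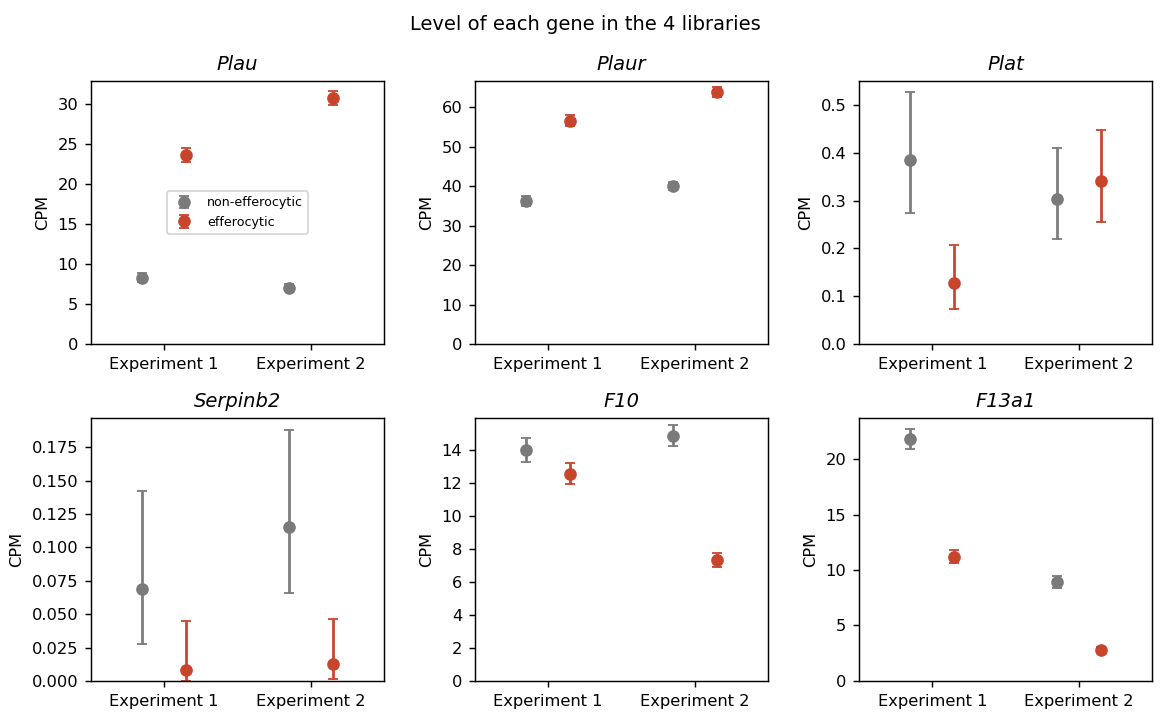
CPM of each gene (y axis, one scale per gene) in the non-efferocytic (grey) and efferocytic (red) library of Experiments 1 and 2, with exact 95% counting intervals as bars. Plau and Plaur were higher in both efferocytic libraries, F13a1 and Serpinb2 lower in both, F10 was 2.02-fold lower in Experiment 2 and little lower in Experiment 1 (but 1.37-fold higher there in UMIs per cell), and Plat differed in opposite directions.

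Plau, urokinase itself, was higher in efferocytic BM macrophages of both experiments. In Experiment 1 its level was 8.28 CPM in non-efferocytic and 23.6 CPM in efferocytic BM macrophages. In Experiment 2 it was 7.06 and 30.7 CPM. The efferocytic libraries thus lay above the non-efferocytic ones with no overlap, by 2.86-fold (95% counting interval 2.64 to 3.09) in Experiment 1 and 4.35-fold (4.06 to 4.67) in Experiment 2. The fitted log2 fold change was 1.93 with a standard error of 0.128. A Plau UMI was found in 6.38% of non-efferocytic and 22.9% of efferocytic cells in Experiment 1, and in 5.67% and 33.9% in Experiment 2. After thinning every cell to 5000 UMIs, which left out 505 to 3404 cells per library, these shares were 3.27%, 9.09%, 3.28% and 13.96%, so the gap remained at equal depth. For comparison, neutrophil-like cells, named from their markers and with a median of 16187 UMIs in Experiment 1 and 16650 in Experiment 2, carried a Plau UMI in 14.7% (non-efferocytic) and 4.35% (efferocytic) of cells in Experiment 1 and in 7.02% and 9.09% in Experiment 2, unthinned and from 22 to 114 cells per library. Median depths of all cells were 11146, 17171, 9600 and 17476 UMIs in non-efferocytic and efferocytic cells of Experiment 1 and then of Experiment 2. The non-efferocytic shares of whole libraries lie within that range, which rests on few cells, and the efferocytic shares lie above it. A few-UMI cluster of Experiment 2 with the lymphocyte marker Cd3d among its leading genes held no Plau UMI in 71 non-efferocytic and 63 efferocytic cells. Its median of 1466.5 UMIs makes it a weak background. No deeper cell type known to lack Plau was at hand, and the level in free RNA is given below. Fibroblast-like cells, far deeper with medians of 45152 and 34000 UMIs in Experiments 1 and 2, carried Plau in 32.4% to 60% of their 13 to 37 cells per library.

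Plau transcripts were spread over more cells in the efferocytic libraries, which restates in part the larger share of cells with a UMI given above. The 1% of cells with most Plau held 42.2% of its UMIs in the non-efferocytic library of Experiment 1 and 34.5% in that of Experiment 2. In the efferocytic libraries they held 22.3% and 11.04%. Few cells had 10 or more Plau UMIs, at most 16 in any library, and in each library over 60% of the positive cells carried a single UMI (61.7% to 80.4%). When the cells of each library were split into 4 equal bins by their UMI count, Plau was higher in the efferocytic cells in all 4 bins of both experiments. Those levels ran from 21.4 to 24.9 CPM against 5.85 to 10.5 CPM in Experiment 1, and from 27.1 to 41.0 CPM against 6.07 to 10.1 CPM in Experiment 2. The same bin holds deeper cells in the efferocytic libraries.

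Plat, the tissue-type activator, was found at only 150 UMIs in all. Its level was 0.385 CPM in non-efferocytic and 0.128 CPM in efferocytic cells of Experiment 1, and 0.304 and 0.341 CPM in Experiment 2. The log2 ratio was -1.59 in Experiment 1 and 0.17 in Experiment 2, and the counting interval of the fold in Experiment 2, 0.736 to 1.73, includes 1. The fitted log2 fold change of -0.46 had a standard error of 0.416, and turned to 0.15 when counts were scaled per cell. It was 0.068 without the efferocytic library of Experiment 1, in a fit without the block. Of the 150 UMIs, 109 (72.7%) lay in 101 fibroblast-like cells, which made up 0.275% of all cells and were led by Col1a1, Col1a2 and Sparc. These clusters also had 10 of the 13 RM1 genes more than 2-fold higher than other cells of their experiment. With finer clusters, 13 non-efferocytic and 14 efferocytic Plat UMIs of Experiment 2 lay in a few-UMI cluster of 215 cells led by Krt18, Krt8 and Dcn, with 9 of the 13 RM1 genes more than 2-fold higher; the origin of these UMIs was not tested. With the coarser clusters, a further 28 lay in clusters of few UMIs, and 13 lay in the 32822 cells of the remaining clusters. Within the fibroblast-like cells Plat reached 28.7 CPM (non-efferocytic) and 23.6 CPM (efferocytic) in Experiment 1 and 16.4 and 43.6 CPM in Experiment 2, from 13 to 37 cells per library. These cells held 38 of 39 and 14 of 16 Plat UMIs of the non-efferocytic and efferocytic library in Experiment 1, and 19 of 42 and 38 of 53 in Experiment 2, so in the non-efferocytic library of Experiment 2 they held the smaller part. The fibroblast marker list was higher in the non-efferocytic libraries, as given above. In the remaining clusters 1 non-efferocytic and 2 efferocytic Plat UMIs were counted in Experiment 1, which is under the level of 3 counts, and 9 and 1 in Experiment 2, where the non-efferocytic library is the one with many small barcodes.

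Plaur, the urokinase receptor, differed by nearly the same fold in both experiments. Its level was 36.2 CPM in non-efferocytic and 56.6 CPM in efferocytic BM macrophages of Experiment 1. In Experiment 2 it was 40.1 and 63.8 CPM. Both efferocytic libraries lay above both non-efferocytic libraries, by 1.56-fold (counting interval 1.502 to 1.63) in Experiment 1 and by 1.59-fold (1.54 to 1.65) in Experiment 2. The fitted log2 fold change was 0.76 with a standard error of 0.0742 in the main fit, which scales libraries by TMM, and 0.66 with library totals, the scale of CPM. A Plaur UMI was found in 18.8% and 39.3% of cells in Experiment 1 and in 18.9% and 45.4% in Experiment 2, and in 9.90%, 17.9%, 12.1% and 20.5% after thinning. Neutrophil-like cells carried Plaur in 77.2% to 100% of cells, at 138 to 229 CPM, so these cells express the receptor gene more per UMI than the library as a whole does. They were fewer in the efferocytic libraries, and with these, the fibroblast-like and the few-UMI clusters left out, the log2 fold change of Plaur was 0.77 and that of Plau 1.95.

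Plaur differed with depth among the cells of one library. In the non-efferocytic library of Experiment 1, the 3 shallower bins of cells stood at 19.96 to 20.96 CPM and the deepest bin at 55.2 CPM. In that of Experiment 2 the deepest bin stood at 53.5 CPM and the others at 23.2 to 29.9 CPM. The efferocytic cells were higher in all 4 bins of both experiments, with 70.7 and 72.8 CPM in the deepest bin. The gap was narrowest, in ratio, among the deepest cells. In all libraries some cells carried many copies, up to 63 UMIs in a cell, and 0.676% and 0.462% of non-efferocytic cells but 1.51% and 1.52% of efferocytic cells had 10 or more.

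Serpinb2, plasminogen activator inhibitor type 2, was counted at 7 and 16 UMIs in the non-efferocytic libraries and at 1 and 2 UMIs in the efferocytic libraries of Experiments 1 and 2. These are 0.0692 and 0.116 CPM against 0.00800 and 0.0129 CPM. The efferocytic over non-efferocytic ratio was 0.116 in Experiment 1, with a counting interval from 0.00257 to 0.900, and 0.111 in Experiment 2, with an interval from 0.0124 to 0.474. Of its 26 UMIs, 20 (76.9%) lay in the 234 neutrophil-like cells, which were 0.636% of all cells and were led by S100a9, S100a8, Ngp and Camp. In those cells a Serpinb2 UMI was seen in 6.67% and 10.5% of the non-efferocytic cells and in 4.35% and 4.55% of the efferocytic cells. Only 3 UMIs lay in the remaining 32822 cells, all of them non-efferocytic. Neutrophil-like cells were also fewer in the efferocytic libraries, 0.344% against 0.906% of cells in Experiment 1 and 0.262% against 0.850% in Experiment 2. Within them Serpinb2 was at 3.79 CPM (non-efferocytic) and 2.14 CPM (efferocytic) in Experiment 1 and at 5.99 and 4.26 CPM in Experiment 2. The efferocytic values rest on 1 and 2 UMIs. The part of the neutrophil-like cells in the Serpinb2 difference was not tested. In the remaining clusters the Serpinb2 count was at or under 3 in both groups, and no fold is given for them.

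**Figure D2:**
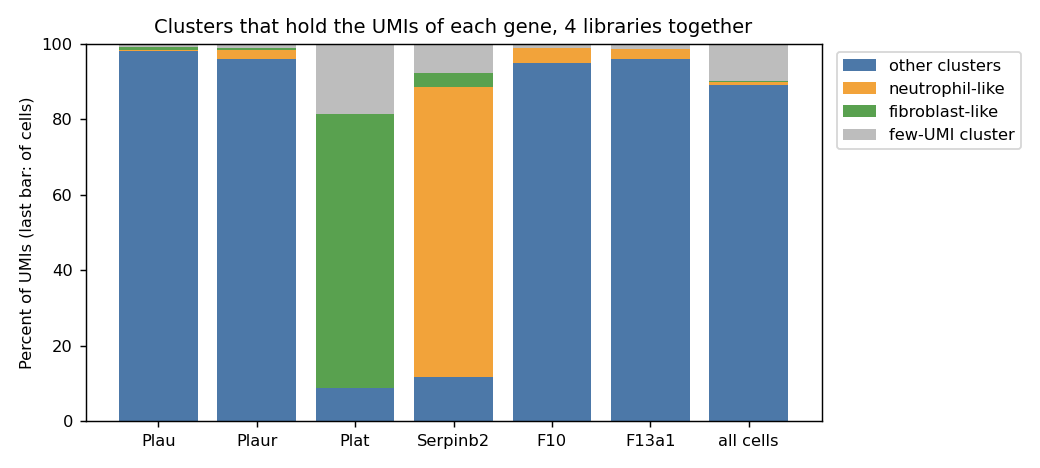
Percent of the UMIs of each gene (y axis) that lay in neutrophil-like, fibroblast-like, few-UMI and other clusters, over the 4 libraries together, with the percent of all cells in the last bar. Plat lay mostly in fibroblast-like cells (72.7%) and Serpinb2 in neutrophil-like cells (76.9%), while 94.9% to 98.0% of the UMIs of the other genes lay in the other clusters, which held 89.2% of the cells.

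F10, factor X, was at 14.01 CPM in non-efferocytic and 12.6 CPM in efferocytic BM macrophages of Experiment 1. In Experiment 2 it was at 14.9 and 7.35 CPM. Both efferocytic libraries lay below both non-efferocytic ones, but by unlike amounts. The fold was 0.897 (counting interval 0.834 to 0.964) in Experiment 1 and 0.494 (0.459 to 0.531) in Experiment 2. The fitted log2 fold change was -0.48 with a standard error of 0.189 in the main fit, which scales libraries by TMM. It was -0.59 with library totals, the scale of CPM, and 0.14 when scaled per cell, so the direction of F10 depended on the scaling. It was -0.90 and -0.052 when the efferocytic library of Experiment 1 or that of Experiment 2 was left out, in fits without the block. Per cell, F10 had 0.171 UMIs in non-efferocytic and 0.235 UMIs in efferocytic cells of Experiment 1, and 0.154 and 0.136 UMIs in Experiment 2. The shares of cells with a UMI were 9.52% and 14.2% in Experiment 1 and 8.66% and 8.87% in Experiment 2. At equal depth they were 4.75% and 5.19% in Experiment 1 and 5.05% and 2.95% in Experiment 2, so at equal depth the efferocytic share was the lower one in Experiment 2 but not in Experiment 1. Within the depth bins, F10 was lower in efferocytic cells in 1 of 4 bins in Experiment 1 and in 3 of 4 in Experiment 2. In the deepest bin it was at 20.9 and 12.4 CPM in Experiment 1 and at 21.6 and 8.25 CPM in Experiment 2. Without the neutrophil-like, fibroblast-like and few-UMI clusters, the log2 fold changes were -0.54 for F10 and -1.27 for F13a1.

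F13a1, the A subunit of factor XIII, was lower in efferocytic BM macrophages. Its level was 21.8 CPM in non-efferocytic and 11.2 CPM in efferocytic cells of Experiment 1, and 8.91 and 2.74 CPM in Experiment 2. The efferocytic library of Experiment 1 lay above the non-efferocytic library of Experiment 2, so the groups overlapped across experiments while the order within each experiment was the same. The fold was 0.514 (counting interval 0.480 to 0.550) in Experiment 1 and 0.308 (0.275 to 0.344) in Experiment 2. The fitted log2 fold change was -1.20 with a standard error of 0.173. It was -1.01 without the block, -0.60 when scaled per cell and -1.90 with free RNA removed. It was -0.22 without the non-efferocytic library of Experiment 1 and -0.30 with the efferocytic library of Experiment 2 left out, and -2.41 with that of Experiment 1 left out. Fits with a library left out had no block and so compare libraries across experiments, between which the F13a1 level also differed. The shares of cells with a UMI were 14.7% and 7.24% in Experiment 1 and 5.80% and 2.32% in Experiment 2, and 9.14%, 3.56%, 3.63% and 1.13% after thinning. F13a1 was lower in efferocytic cells in all 4 depth bins of both experiments. In each efferocytic library it was lower the deeper the bin. It ran from 26.0 to 5.48 CPM in Experiment 1 and from 6.31 to 1.59 CPM in Experiment 2. The non-efferocytic library of Experiment 1 had the same order, from 34.1 to 13.5 CPM. That of Experiment 2 stood at 12.6, 13.98, 8.54 and 6.87 CPM from the shallowest to the deepest bin. The same bin holds deeper cells in the efferocytic libraries. The part of cell depth in the F13a1 difference was not tested beyond the thinning to 5000 UMIs.

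The remaining F13a1 of efferocytic cells was held by few of them. The 1% of cells with most F13a1 held 47.2% of its UMIs in the efferocytic library of Experiment 1 and 74.2% (85 cells) in that of Experiment 2. In the non-efferocytic libraries they held 23.6% and 39.5%. These shares depend on how many cells had an F13a1 UMI, which were 485 and 195 efferocytic and 1215 and 778 non-efferocytic cells in Experiments 1 and 2. In Experiment 1, 22 efferocytic and 4 non-efferocytic cells had 10 or more F13a1 UMIs, and in Experiment 2, 4 and 2 cells. The monocyte marker list (8 genes without F13a1) moved the same way as F13a1, from 220 to 74.0 CPM in Experiment 1 and from 259 to 64.5 CPM in Experiment 2. Chil3 had the most UMIs of this list in every library and was among the leading genes of the neutrophil-like clusters. In these clusters 6 of the 8 list genes were more than 2-fold higher than in other cells of the experiment. The list thus does not separate monocyte-like from neutrophil-like cells, and the part of either in the F13a1 difference was not tested. MHC class II genes (5 genes) went from 493 to 39.1 CPM and from 906 to 95.5 CPM, and their part in it was not tested either.

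The cells of each experiment were clustered on their transcripts without the 6 genes (Leiden, resolution 0.5), which gave 11 clusters in each experiment. The clusters were largely made of one library or the other. In Experiment 1, cluster 1, led by Ier3, Ighm, Hpgd and Gpr34, held 56.7% of non-efferocytic but 2.63% of efferocytic cells, and cluster 2, led by Fabp4, Spp1 and Pf4, held 3.20% and 55.6%. In Experiment 2, cluster 1, led by Npy, Bcl2l1 and Cdkn1c, held 1.20% of non-efferocytic and 83.3% of efferocytic cells, and cluster 2, led by Hpgd, Clec10a and Fxyd2, held 33.6% and 0.868%. Levels within a cluster are therefore descriptions of its cells, some of them few.

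**Figure D3:**
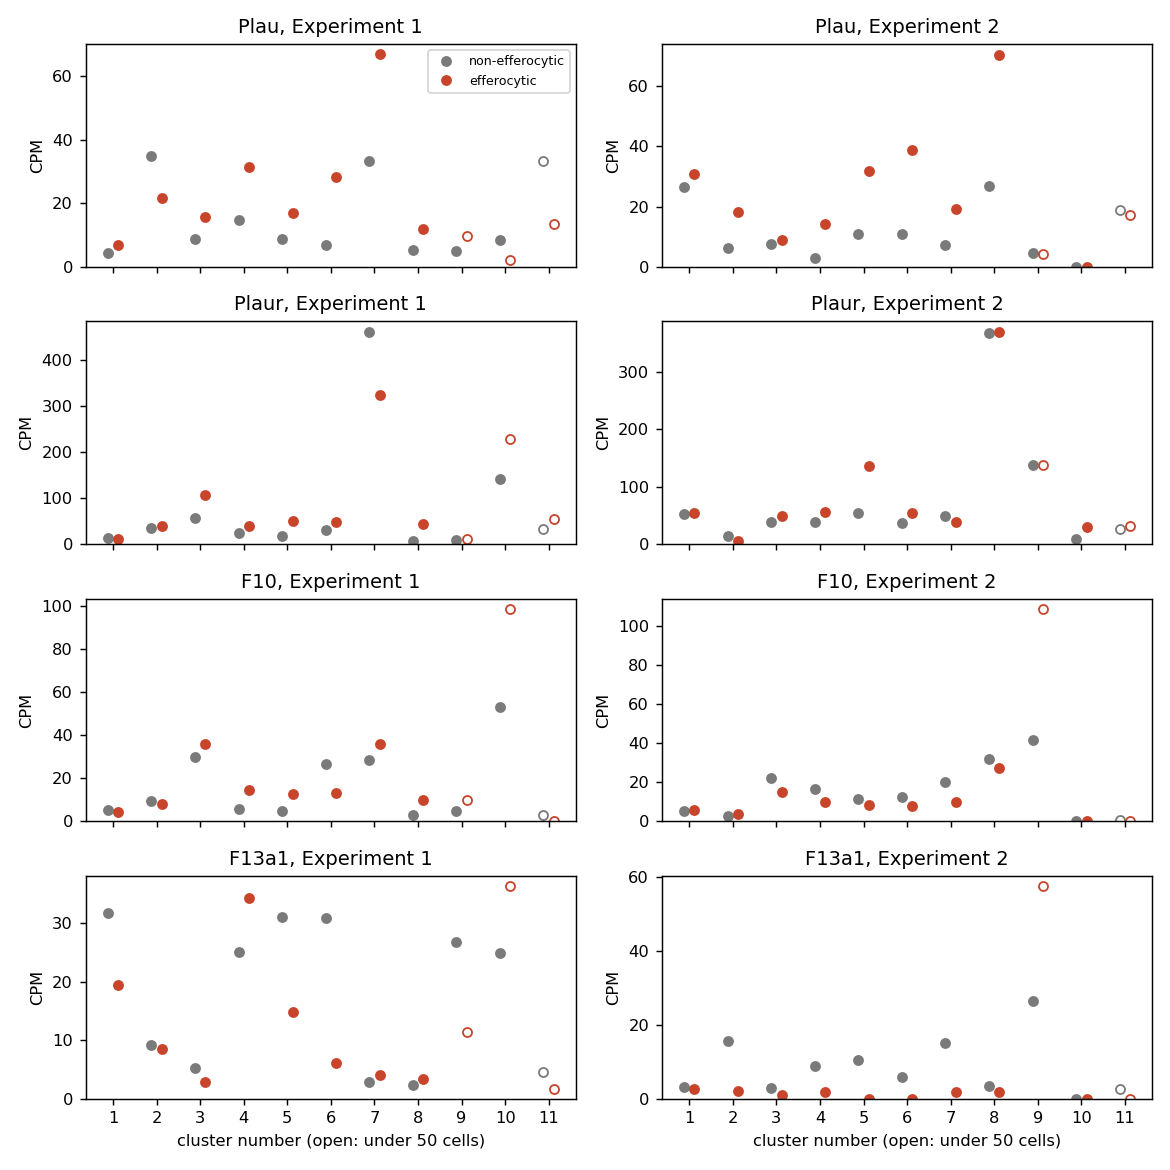
CPM (y axis) of Plau, Plaur, F10 and F13a1 in each cluster (x axis, numbered within an experiment) of Experiment 1 (left) and Experiment 2 (right), in non-efferocytic (grey) and efferocytic (red) cells, with open circles for fewer than 50 cells. Plaur peaked in cluster 7 of Experiment 1 and cluster 8 of Experiment 2, as Plau did apart from the non-efferocytic cells of Experiment 1, F10 in the neutrophil-like clusters 10 and 9, and F13a1 in several clusters of Experiment 1 and, outside the neutrophil-like cluster, in non-efferocytic cells of Experiment 2.

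Plaur was highest in one small cluster of each experiment, and Plau was too in 3 of the 4 libraries. This was cluster 7 of Experiment 1 (357 cells) and cluster 8 of Experiment 2 (495 cells), both of which had Ero1l, Prss46, Asns, Phgdh, Col18a1, Atf5 and Procr among their 10 leading genes. Asns and Phgdh make the amino acids asparagine and serine, and Procr is the endothelial protein C receptor. Plaur stood at 462 CPM in non-efferocytic and 324 CPM in efferocytic cells of that cluster in Experiment 1 and at 368 and 369 CPM in Experiment 2. A Plaur UMI was found in 84.2% to 92.3% of its cells. Plau stood at 33.2 and 66.8 CPM in Experiment 1 and at 26.7 and 70.4 CPM in Experiment 2. This was its highest level among clusters of at least 50 cells except for the non-efferocytic cells of Experiment 1, where cluster 2 (265 cells) had 34.8 CPM. The cluster held 1.22% and 3.82% of the cells of Experiment 1 and 1.45% and 3.57% of those of Experiment 2, so in both experiments its share was larger in the efferocytic library. Inside the cluster where Plaur was highest, its efferocytic level was lower in Experiment 1 and about equal in Experiment 2, while that of Plau was higher in both.

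Within clusters that held at least 50 cells of both libraries, 1 of which in Experiment 1 and 3 in Experiment 2 were few-UMI clusters, Plau was higher in efferocytic cells in 7 of 8 clusters of Experiment 1 and in 8 of 9 of Experiment 2, where it was at 0 in both groups of the other. The median log2 ratio was 0.98 and 1.46. Plaur was higher in 6 of 8 and 7 of 9 clusters, with medians of 0.71 and 0.40. In Experiment 2 these included the few-UMI cluster 10, led by Trbc2, Ms4a4b and the lymphocyte marker Cd3d, with 1 non-efferocytic and 3 efferocytic Plaur UMIs. That cluster held no UMI of Plau, F10 or F13a1 in either group. The Plaur median of Experiment 1 was 0.049 with finer clusters (resolution 1.0), where 7 of 11 clusters were higher, so the within-cluster size of the Plaur difference depended on how finely the cells were divided. With these finer clusters Plau was higher in 8 of 11 and 9 of 10 clusters, with medians of 0.91 and 1.02 and a lowest log2 ratio of -1.04 in Experiment 1. F10 was higher in 5 of 8 clusters of Experiment 1 and lower in 6 of 9 of Experiment 2, with medians of 0.30 and -0.49. F13a1 was lower in 5 of 8 and 8 of 9 clusters, with medians of -0.41 and -1.82. The median of Experiment 2 leaves out clusters 5 and 6, both counted as lower, where efferocytic cells held 0 F13a1 UMIs against 24 and 8. In cluster 2 of Experiment 1, which held most efferocytic cells of that experiment, Plau was lower in these, at 21.6 CPM against 34.8 CPM in the 265 non-efferocytic cells, and Plaur was at 39.3 and 36.0 CPM. In cluster 1 of Experiment 2, which held most efferocytic cells there, Plaur was at 53.5 CPM in these and at 52.6 CPM in the 161 non-efferocytic cells, and Plau at 30.8 and 26.5 CPM.

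F10 was highest in neutrophil-like cells, with 53.0 and 98.4 CPM in Experiment 1 and 41.5 and 109 CPM in Experiment 2, in 75, 23, 114 and 22 cells. In cluster 3 of Experiment 1 (2047 cells), led by Mmp12, Slamf8 and Itgax, it was at 30.1 CPM in non-efferocytic and 35.9 CPM in efferocytic cells. In Experiment 2, cluster 3, led by Fbxo32, Mmp12 and Slamf8, had 22.2 and 15.0 CPM. Cluster 3 held 20.2% of non-efferocytic and 5.62% of efferocytic cells in Experiment 1 and 24.9% and 2.09% in Experiment 2. The cluster in which Plaur peaked also had 28.5 and 36.0 CPM of F10 in Experiment 1 and 32.0 and 27.6 CPM in Experiment 2.

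F13a1 was spread otherwise. In Experiment 1 it was at 31.8 and 19.4 CPM in cluster 1, at 25.1 and 34.4 CPM in cluster 4, led by Arg1 and Tfrc, and at 31.0 and 6.06 CPM in cluster 6, led by the cell cycle genes Birc5, Cenpf and Hmmr. It was at 2.38 to 4.09 CPM in clusters 7 and 8. In Experiment 2 its highest level outside the neutrophil-like cluster (26.5 and 57.5 CPM) was 15.7 CPM, in the non-efferocytic cells of cluster 2, where the 73 efferocytic cells had 2.04 CPM. In the 7001 efferocytic cells of cluster 1 it was at 2.72 CPM. F13a1 was thus low where Plaur was highest, with 2.91 and 4.09 CPM in cluster 7 of Experiment 1 and 3.34 and 1.88 CPM in cluster 8 of Experiment 2.

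Whether the genes met in the same cells was counted after thinning to 5000 UMIs. Plau and Plaur were found together in 52 non-efferocytic cells of Experiment 1 where 23.3 would be expected if they were independent, and in 143 efferocytic cells where 99.8 would be. In Experiment 2 they were together in 71 non-efferocytic cells against 39.8 and in 269 efferocytic cells against 227. The ratios of 2.23, 1.43, 1.78 and 1.19 were above 1 in all 4 libraries and closer to 1 in the efferocytic library of each experiment. Plaur and F10 met at ratios of 2.19, 1.74, 2.25 and 1.90, above those of Plau and Plaur in all libraries but the non-efferocytic one of Experiment 1. Plaur and F13a1 met at ratios of 0.739, 0.921, 0.885 and 0.985, and Plau and F10 at 0.717, 1.07, 1.09 and 1.14, from as few as 8 shared cells. Cells are not replicates, and these ratios are descriptions of each library.

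Barcodes with fewer than 100 UMIs show the RNA that floated free of cells. Plau was lower there than in cells in all 4 libraries, at 4.65 and 8.23 CPM in Experiment 1 and 4.73 and 14.2 CPM in Experiment 2, and was itself higher in the efferocytic libraries. Plaur was at 29.7 and 42.8 CPM in the free RNA of Experiment 1, below its level in cells, and at 70.7 and 100.6 CPM in that of Experiment 2, above it. F10 was at 9.15 and 10.97 CPM and at 29.7 and 26.8 CPM. F13a1 was at 18.6, 15.5, 19.5 and 19.5 CPM, nearly level between libraries, where its level in cells ran from 2.74 to 21.8 CPM. In the efferocytic cells of Experiment 2, F13a1 was at 0.141 times its free RNA level. The part of free RNA in the levels of cells was not tested beyond the removal of 10% of UMIs.

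**Figure D4:**
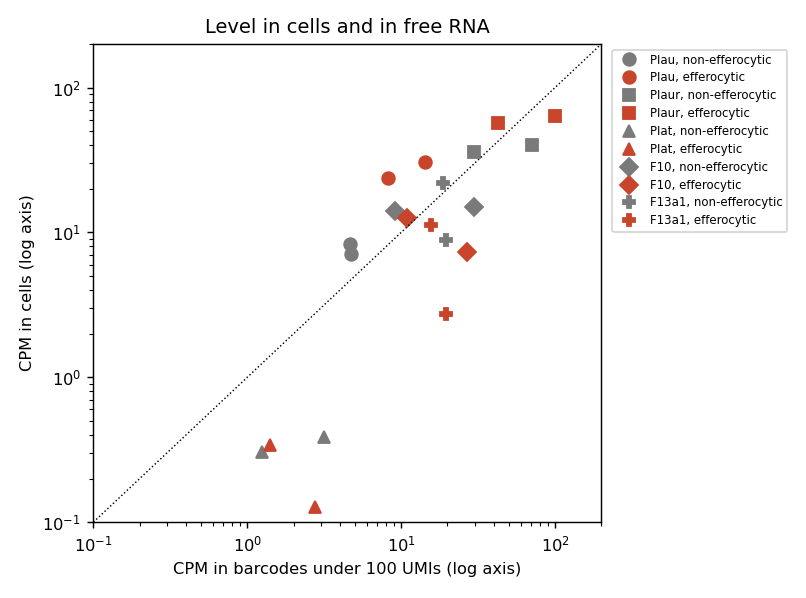
CPM in cells (y axis, log scale) against CPM in barcodes under 100 UMIs (x axis, log scale) for 5 of the genes in non-efferocytic (grey) and efferocytic (red) libraries, with a dotted line where both are equal. Plau lay above the line in all 4 libraries and Plat below it, and F10 and F13a1 lay farthest below it in the efferocytic library of Experiment 2, at 0.274 and 0.141 times the free RNA level.

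The genes with the most similar pattern were sought over 37 points, each a cluster of at least 50 cells in 1 library, among the 7097 genes that averaged 10 CPM or more. For Plau the closest were Nckap5l (Pearson r = 0.88), Nek6 (0.87) and Msr1 (0.86), the last a scavenger receptor of macrophages. For Plaur they were Ldha (0.81), which makes lactate, Sh2d3c (0.80) and Alas1 (0.80), the first enzyme of heme synthesis. For F10 they were Slc16a3 (0.85), a lactate exporter, Itgb2 (0.84), the beta-2 integrin chain, and Pkm (0.82), a pyruvate kinase. For F13a1 they were Cd81 (0.80), a tetraspanin, Gm1673 (0.78) and Sephs2 (0.77). Among the 6 genes, r was 0.76 between Plaur and F10, 0.58 between Plau and Plaur, 0.57 between Plau and F10, and between -0.14 and 0.19 for F13a1 with these 3. The points share libraries, depth and cells of like state, so these values describe likeness and carry no test.

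Around these genes, 59 further genes of the pathway were looked at, as binding proteins of plasminogen, partners and clearance receptors of the urokinase receptor, serpins and other inhibitors, and coagulation factors with their receptors and regulators. Of these, 43 were tested, 17 rose and 9 fell in efferocytic BM macrophages, against 19.9% and 19.0% of all genes. The counts moved with the processing, as those over all genes did. Without the block 9 rose and 7 fell, where 1285 and 1073 of all 13869 genes did, against 2761 and 2636 with it. With all 4 libraries, those that fell ranged from 2 of 21 tested over genes of at least 10 CPM to 15 with library totals. Over all genes, 1553 of 7097 and 3700 of 13869 fell in these settings. Their median log2 fold change was 0.19, and that of all genes tested was -0.018. Without the neutrophil-like, fibroblast-like and few-UMI clusters, 38 were tested, 16 rose and 6 fell, where 2461 and 2380 of all 13164 genes did. The lists were drawn up with earlier results of these libraries known. Plasminogen itself (Plg) had no UMI in any library, which allows at most 0.0193 to 0.0296 CPM, and 16 of the 59 genes were below the filter.

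**Figure D5:**
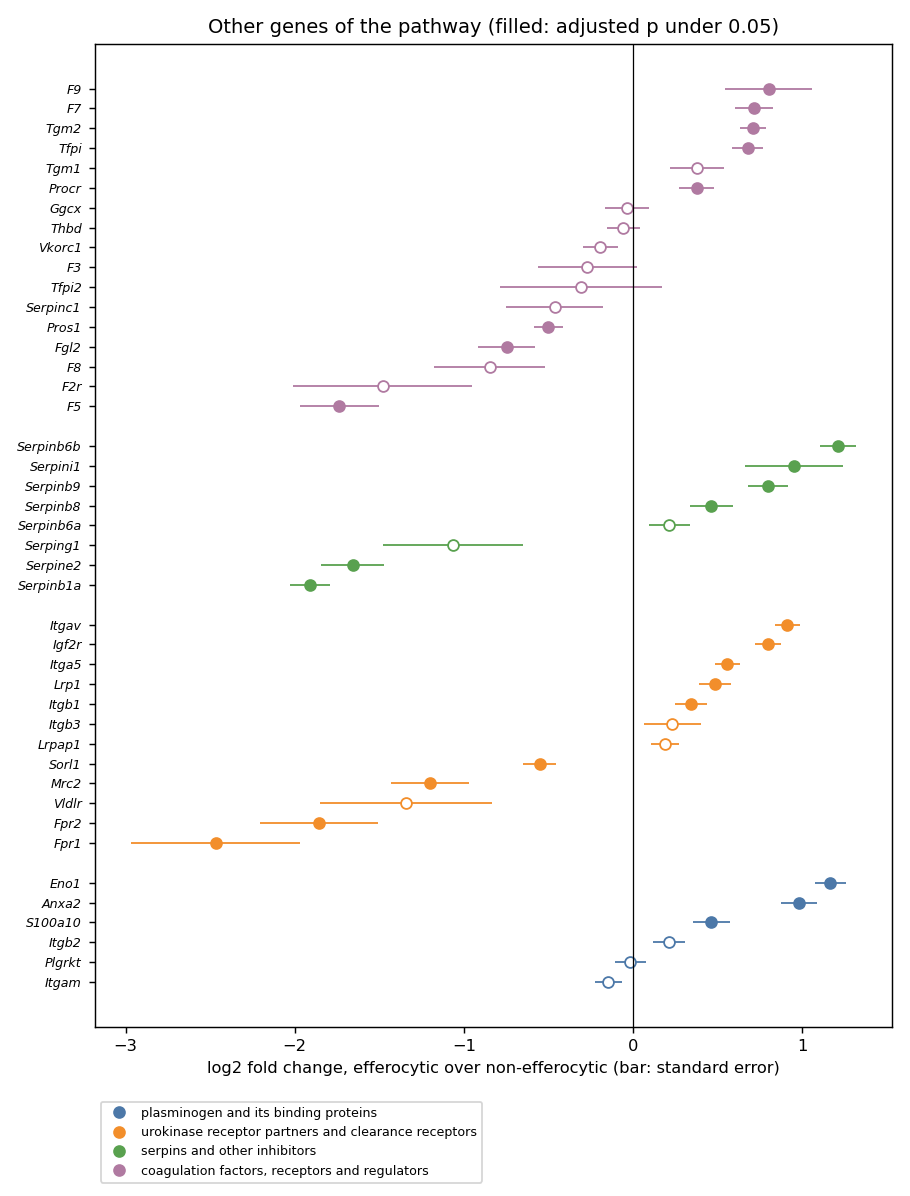
Log2 fold change of efferocytic over non-efferocytic (x axis), with its standard error as a bar, of the 43 further pathway genes tested (y axis, grouped by role and coloured), filled where the adjusted p of edgeR was under 0.05. Of the plasminogen binding proteins, 3 of 6 rose and none fell, and of 8 inhibitors 4 rose and 2 fell, where 19.9% and 19.0% of all genes did.

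Of 6 tested genes whose proteins hold plasminogen at the cell surface, the transcripts of 3 rose and none fell. Eno1, the glycolytic enzyme enolase, which also binds plasminogen, rose from 115 ± 11.7 to 240 ± 24.2 CPM (SD, n = 2 libraries per group), a log2 fold change of 1.17 (edgeR adjusted p = 0.000126). Anxa2, annexin A2, rose from 401 ± 32.7 to 738 ± 89.4 CPM (0.98, edgeR adjusted p = 0.000464), and its partner S100a10 from 550 ± 58.5 to 704 ± 70.4 CPM (0.46, edgeR adjusted p = 0.0122, or 0.057 without the block). Eno1 and Anxa2, like F7 below, are also in gene sets that the study derived from increases in these libraries, so their direction is not independent evidence. Plau and Plaur are in such sets as well, so the study had already listed both as higher in efferocytic BM macrophages. The plasminogen receptor Plgrkt had a log2 fold change of -0.017 and the integrin chain Itgam one of -0.15, neither past the threshold, though Itgam was called lower with library totals (-0.25, edgeR adjusted p = 0.0364).

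Of 12 tested partners and clearance receptors of the urokinase receptor, 5 rose and 4 fell, beside the same 19.9% and 19.0% of all genes. The integrin chain Itgav, of the vitronectin receptor, rose from 30.2 ± 4.90 to 52.5 ± 5.99 CPM, a log2 fold change of 0.91 (edgeR adjusted p = 0.000145). Igf2r, which binds the receptor and lysosomal enzymes, rose from 39.0 ± 1.89 to 62.8 ± 3.02 CPM (0.80, edgeR adjusted p = 0.000258), and Itga5, the fibronectin receptor chain, from 24.0 ± 1.26 to 32.8 ± 2.14 CPM (0.56, edgeR adjusted p = 0.00124). Sorl1, a sorting receptor, fell from 17.6 ± 0.177 to 11.2 ± 1.04 CPM, a log2 fold change of -0.55 (edgeR adjusted p = 0.0037) that turned to 0.068 when scaled per cell. The other 3 that fell, Mrc2, Fpr1 and Fpr2, had means of 0.227 to 0.691 CPM. Mrc2 (-1.20 in the fit with the block) was not called when scaled per cell (-0.58, edgeR adjusted p = 0.12), by DESeq2 (-1.19, adjusted p = 0.062) or with free RNA removed (-2.94, edgeR adjusted p = 0.157), and fell below the filter without the neutrophil-like, fibroblast-like and few-UMI clusters. Neutrophils also express the formyl peptide receptors Fpr1 and Fpr2, and without the neutrophil-like, fibroblast-like and few-UMI clusters Fpr1 was at -2.74 (edgeR adjusted p = 0.00792) and Fpr2 at -1.16 (edgeR adjusted p = 0.112). With free RNA removed neither was called (edgeR adjusted p = 0.163 and 0.259), nor was Fpr2 without the block (edgeR adjusted p = 0.105). The 3 genes are named because the count was small, after their values were seen.

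Among 8 tested inhibitors, 4 rose and 2 fell, against shares of 19.9% and 19.0% over all genes, and these small counts are given as a description. Serpinb6b rose from 5.13 ± 1.18 to 11.2 ± 4.10 CPM (log2 fold change 1.21, edgeR adjusted p = 0.000198), Serpinb9, the granzyme B inhibitor, from 4.47 ± 0.384 to 7.30 ± 1.84 CPM (0.80, edgeR adjusted p = 0.00186), and Serpinb8 from 14.8 ± 0.19 to 19.4 ± 6.03 CPM (0.46, edgeR adjusted p = 0.0217, or 0.139 without the block). Serpinb8 differed mainly in Experiment 2, with 15.0 against 23.7 CPM, where Experiment 1 had 14.7 against 15.1 CPM. Its log2 fold change was 0.18 without the efferocytic library of Experiment 2, in a fit without the block. Serpinb6b has a close copy, Serpinb6a, at 1035 to 1116 CPM on average per group, and reads could be split between them. Serpinb1a, an inhibitor of neutrophil proteases, fell from 11.1 ± 1.80 to 2.73 ± 0.215 CPM (-1.91, edgeR adjusted p = 5.87e-05), and was no longer past the threshold without the neutrophil-like, fibroblast-like and few-UMI clusters (-1.22, edgeR adjusted p = 0.0582). Serpine2, protease nexin 1, fell from 2.61 ± 0.703 to 0.752 ± 0.0114 CPM (-1.66, edgeR adjusted p = 0.00055), and its log2 fold change was -3.82 with free RNA removed, not past the threshold (edgeR adjusted p = 0.119).

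Of 17 tested coagulation genes, 5 rose and 3 fell, the latter near the 19.0% of all genes that did, so the counts are a description only. F7, factor VII, the neighbour of F10 on chromosome 8, rose from 11.8 ± 4.91 to 17.5 ± 4.53 CPM (log2 fold change 0.72, edgeR adjusted p = 0.00221, or 0.185 without the block). Per library F7 was at 8.29 and 14.3 CPM in Experiment 1 and at 15.2 and 20.7 CPM in Experiment 2. It was thus higher in the efferocytic library within each experiment and overlapped between experiments. In fits without the block, its log2 fold change ran from 0.31 without the non-efferocytic library of Experiment 1 to 1.19 without that of Experiment 2. It was 0.43 there without the efferocytic library of Experiment 2. Tgm2, a transglutaminase of the same family as F13a1, rose from 22.0 ± 1.74 to 33.5 ± 4.52 CPM (0.71, edgeR adjusted p = 0.000449), opposite to F13a1. Tfpi, the inhibitor of the tissue factor pathway, rose from 10.2 ± 1.19 to 15.3 ± 2.46 CPM (0.68, edgeR adjusted p = 0.00115, or 0.0522 without the block). Pros1, the anticoagulant protein S, which also bridges dying cells to macrophage receptors, fell from 34.2 ± 0.0364 to 22.5 ± 1.75 CPM (-0.50, edgeR adjusted p = 0.00343), a direction that turned to 0.12 when scaled per cell. Fgl2, a prothrombinase of macrophages, fell from 4.89 ± 0.214 to 2.75 ± 0.651 CPM (-0.75, edgeR adjusted p = 0.0108). It was not past the threshold per cell (-0.13), without the block (-0.72, edgeR adjusted p = 0.0743) or with free RNA removed (-3.16, edgeR adjusted p = 0.24). Its log2 fold change was -0.46 without the efferocytic library of Experiment 2, in a fit without the block. The third gene that fell was F5, factor V, the cofactor of activated factor X, from 0.992 ± 0.064 to 0.276 ± 0.0169 CPM (-1.74, edgeR adjusted p = 0.00115, and -1.12 when scaled per cell, edgeR adjusted p = 0.00415), named after its values were seen. Tissue factor (F3), which starts clotting, had 22 to 74 UMIs per library and a log2 fold change of -0.27 (edgeR adjusted p = 0.49).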

How the data were processed

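Sorted BM macrophages were loaded on the 10X Genomics platform with the 3′ Kit v3.1, for a target of 10000 cells per library and 50000 reads per cell. Reads had been aligned to mm10 and counted in Cell Ranger (version 3.0.0 in the methods and the matrix headers of Experiment 1, 3.1.0 in the headers of Experiment 2). The values deposited by the authors are raw UMI counts of every barcode, empty ones included, and are not normalized. A barcode was kept as a cell with 200 or more genes, 1000 or more UMIs and no more than 10% of UMIs from mitochondrial genes. These are the limits of the study, applied here to all barcodes rather than to barcodes already called as cells, so the cells need not be those of the study. With the Cell Ranger rule applied first, an alternative, 10615 of the 13411 cells of the non-efferocytic library of Experiment 2 were left. Doublets were not removed. All genes of a cell count towards its CPM, so a gene's CPM falls where others rise.

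UMIs were summed per library and fitted with edgeR 4.0.16 in R 4.3.3 (quasi-likelihood test, TMM, filterByExpr, experiment as a block), with Benjamini-Hochberg adjustment over 13869 genes. Standard errors of the fitted log2 fold changes were worked back from this test, as the absolute log2 fold change over the square root of the F statistic. They draw on variation pooled over genes and are not the spread of a gene between the experiments. The study tested cells within each experiment, whereas libraries are the replicates here, and p-values measure only the spread between these 4 libraries. The experiment number in the labels gives the pairing, and the deviations of paired libraries from the mean of their group correlated (r = 0.77 over 8623 genes). On simulated counts with 200 genes changed 2-fold, at 1 dispersion for all 13799 genes, edgeR with the block found 200 with 11 false calls. Without the block it found 98 with 0 false calls, and DESeq2 (1.42.0) found 190 with 5. In the real libraries 38.9% of genes were called and dispersions differ between genes, so the simulation does not give the error rate of the main fit. Cells of each experiment were clustered with Leiden (leidenalg 0.10.2, scikit-learn 1.9.0) on 20 principal components of 5000 variable genes, without the 6 genes, and clusters were named only from markers. Few-UMI clusters are those whose median UMI count lay far below that of their sample. Thinning to 5000 UMIs left out shallower cells.

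The 6 genes, the gene lists and the tests were chosen with earlier results of these data known. Named pathway genes are the 3 largest increases and 3 largest decreases of each group, taken from the called genes that averaged 1 CPM or more; 1 gene of the original pathway list is not reported here and was left out of its counts. Positions come from the GENCODE annotation of GRCm38 and promoter windows from RefSeq. Other settings tried were a fit without the block, DESeq2, scaling per library total or per cell, other filters on genes and cells, removal of 10% of UMIs as free RNA, other cell sets and each library left out.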

Additional observations from a re-analysis of the deposited data

Results flagged for a closer look

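The Plat log2 ratio of efferocytic over non-efferocytic CPM was -1.59 in Experiment 1 and 0.17 in Experiment 2, so the libraries moved in opposite directions, and this difference between the experiments was not tested. Only 16 to 53 Plat UMIs per library stand behind it, of which 14 to 38 lay in 13 to 37 fibroblast-like cells per library.

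Barcodes with fewer than 100 UMIs, which enter no comparison between the groups, held more Plau and Plaur in the efferocytic than in the non-efferocytic library of both experiments. Plau was at 8.23 CPM against 4.65 CPM in Experiment 1 and at 14.2 CPM against 4.73 CPM in Experiment 2. Plaur was at 42.8 CPM against 29.7 CPM and at 100.6 CPM against 70.7 CPM. The part of this free RNA in the Plau and Plaur levels of cells was not tested beyond the removal of 10% of UMIs, under which their log2 fold changes were 1.94 and 0.77.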

How the results depend on the processing

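Plau and Plaur were higher in efferocytic BM macrophages under each alternative run. Scaled per cell, which moved the median gene to 0.60 on the log2 scale, the log2 fold changes were 2.54 for Plau, 1.38 for Plaur and -0.60 for F13a1, and turned to 0.15 for Plat and 0.14 for F10. Plaur was 0.66 with library totals, 0.67 over genes of at least 10 CPM, 0.74 in cells of at least 5000 UMIs, 0.79 in cells without RM1 or fibroblast UMIs and 0.80 after thinning. F13a1 was -1.90 with 10% of UMIs removed as free RNA. Library totals gave 33.3% of calls as higher and scaling per cell 92.2%, against 51.2%.

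No replicate block left 2358 genes called of 5397, 9 pathway genes higher, and gave -1.01 for F13a1; DESeq2 called 3389. Pathway genes higher were 11 of 21 tested over genes of at least 10 CPM, where 1473 of all 7097 genes were. Pathway genes lower were 15 with library totals, 5 scaled per cell, 2 over genes of at least 10 CPM, 4 with free RNA removed and 6 without the neutrophil-like, fibroblast-like and few-UMI clusters, an alternative chosen after seeing the data. In the same order, 3700, 586, 1553, 1082 and 2380 of all genes were lower, against 2636 in the main fit. Each library left out, without the block, gave 0 to 2933 calls over all genes, 0 to 9 pathway genes higher and 0 to 10 lower. Log2 fold changes ran from 1.78 to 2.08 for Plau, 0.70 to 0.85 for Plaur, -1.27 to 0.068 for Plat, -0.90 to -0.052 for F10 and -2.41 to -0.22 for F13a1. Plat turned to 0.068 without the efferocytic library of Experiment 1, and F13a1 was -0.22 without the non-efferocytic library of Experiment 1 and -0.30 without the efferocytic library of Experiment 2. With a non-efferocytic library left out, 2 (Experiment 1) and 0 (Experiment 2) genes were called by edgeR, 2999 and 3494 being at an unadjusted p under 0.05. The lone library of a group was then assumed to vary like the others. Sorl1 was 0.068 and Pros1 0.12 scaled per cell. Unthinned, Plaur and F13a1 met at a mean ratio of 1.02, against 0.882. With a library left out, 45 values of named pathway genes were no longer past the threshold and 23 were. The causes were not tested. With all 4 libraries, Serpinb2 was tested only when no filter was used, with a log2 fold change of -2.93 from 26 UMIs. Depth limits Plat and Serpinb2, which had 150 and 26 UMIs in all.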
